A study of Mus musculus with 2 samples.

Results

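Cdkn1a-high AT2 cells are the alveolar type 2 (AT2) cells in which the p21 gene Cdkn1a was read at least 3 times. They were chosen from base cells, that is, barcodes with at least 500 genes, at least 5000 UMIs (unique molecular identifiers, each counting 1 RNA molecule), at most 20% mitochondrial UMIs and at least 10% of UMIs from the surfactant gene Sftpc. Of 18938 barcodes 13772 were base cells, and 1250 of these held 3 or more Cdkn1a UMIs. They were compared with the 8194 base cells that held none, within each library and at equal total UMIs. Cdkn1a UMIs chose the cells, so the level of Cdkn1a is given as a description, and the gene is left out of every ratio.

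The study sorted lung cells of male mice that carried EpCAM and lacked Sca-1, CD24, CD45, CD34 and CD31, and made 1 single-cell library from mice labelled WT and 1 from mice labelled IP-/- (IPKO), which lack the prostaglandin I2 receptor encoded by Ptgir. No treatment, age or strain is given, nor how many animals were pooled. Ptgir went against the labels: the base cells held 0 UMIs in the library labelled WT and 313 in the library labelled IPKO. Whether the counted 3' end lies within the deleted part is not given, and a swap of the labels was not tested. The libraries are therefore named by their labels throughout, and no direction between genotypes is drawn. Deposited totals were 127287281 and 137471506 UMIs, and base cells had medians of 18327 UMIs (labelled WT) and 17112 UMIs (labelled IPKO). The libraries shared 79 barcodes, 12 of them within the base cells. With 1 library per genotype nothing was tested between them. All intervals are 95% intervals for counting error only and do not cover the spread between cells or mice.

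Cdkn1a encodes p21, an inhibitor of cyclin-dependent kinases that holds cells before division. It is a classic target of the transcription factor p53, which is itself held low by its target Mdm2, and it can also be switched on without p53, for example by growth factor, stress or TGF-beta signals. AP-1 factors, dimers of JUN, FOS, ATF and MAF proteins, answer such signals within minutes, and also the handling of tissue. In the injured lung AT2 cells pass through a keratin-rich transitional state on their way to flat alveolar type 1 (AT1) cells, and that state is known in mice for both p53 activity and Cdkn1a.

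The start regions of Cdkn1a and 3 direct p53 target genes are shown because they were found to hold the p53 half-site consensus, which reads the same on both strands. They were picked for holding it: no half-site was found in the windows of Phlda3 (0), of Gdf15 (0 in both) or of the other annotated start of Cdkn1a (0). The Phlda3 window ends in gaacatgt, the letters that open GAACATGTCT in the Cdkn1a window. A half-site running past its end could not have been found. Each runs 5' to 3' from 250 bases before to 50 bases after an annotated start (RefSeq, GRCm38.p6), with half-sites in capitals. They lie at chr17:29090729-29091028 (plus strand, Cdkn1a), chr11:40755237-40755536 (minus strand, Ccng1), chr7:45466849-45467148 (minus strand, Bax) and chr10:117710709-117711008 (minus strand, Mdm2).
Cdkn1a: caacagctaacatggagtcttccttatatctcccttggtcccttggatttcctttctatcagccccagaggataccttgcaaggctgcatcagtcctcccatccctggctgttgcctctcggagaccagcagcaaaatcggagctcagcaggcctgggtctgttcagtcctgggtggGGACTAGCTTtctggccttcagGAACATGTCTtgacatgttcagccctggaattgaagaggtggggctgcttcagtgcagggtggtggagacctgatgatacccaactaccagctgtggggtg
Ccng1: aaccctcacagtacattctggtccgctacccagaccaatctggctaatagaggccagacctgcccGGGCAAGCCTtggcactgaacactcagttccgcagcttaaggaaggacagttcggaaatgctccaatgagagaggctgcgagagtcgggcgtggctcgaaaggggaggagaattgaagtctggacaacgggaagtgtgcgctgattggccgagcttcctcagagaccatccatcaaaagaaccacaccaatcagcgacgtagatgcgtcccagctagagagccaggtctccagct
Bax: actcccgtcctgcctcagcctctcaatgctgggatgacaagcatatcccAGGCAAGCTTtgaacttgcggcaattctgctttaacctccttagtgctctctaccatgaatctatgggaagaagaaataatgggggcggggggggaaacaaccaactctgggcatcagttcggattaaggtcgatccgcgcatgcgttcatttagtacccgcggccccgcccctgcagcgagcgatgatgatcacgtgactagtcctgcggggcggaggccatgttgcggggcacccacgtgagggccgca
Mdm2: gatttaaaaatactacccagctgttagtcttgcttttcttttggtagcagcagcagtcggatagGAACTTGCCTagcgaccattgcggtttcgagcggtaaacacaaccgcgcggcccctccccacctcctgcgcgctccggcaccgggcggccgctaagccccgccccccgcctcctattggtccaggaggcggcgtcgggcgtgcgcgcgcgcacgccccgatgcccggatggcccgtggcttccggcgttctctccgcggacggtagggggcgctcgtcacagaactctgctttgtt
The Cdkn1a window holds a pair of half-sites, and each of the other windows holds 1. Such a half-site stood in 2745 of 32851 windows of this length (8.36%), and in 12 of 40 windows (30%) of the 27 direct p53 target genes that had one. A match describes letters only and is not a measured binding site. The AP-1 motif TGANTCA, searched on both strands, was in 7.81% of all windows, in 0 of the 11 windows of the genes called below, in 5 of 21 windows of the transitional list (23.8%) and in 0 of 19 of the AP-1 list. The p53 half-site was in 2 of the 11 windows of the called genes (18.2%).

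Cdkn1a was a low, widely spread transcript in these AT2 cells. Its level over all base cells was 44.0 CPM (UMIs per 1000000 UMIs, interval 42.8 to 45.2) in the library labelled WT and 45.5 CPM (44.4 to 46.7) in the library labelled IPKO. Of 6392 base cells labelled WT 599 were Cdkn1a-high (9.37%, exact interval 8.67% to 10.1%), and of 7380 labelled IPKO 651 were (8.82%, 8.18% to 9.49%). The intervals of these shares overlap. The members held 49.8% and 50.8% of all Cdkn1a UMIs of the base cells, with a median of 4 UMIs per member and at most 32 and 35. Of the members 291 and 303 stood exactly at the threshold of 3 UMIs, and 638 and 651 base cells stood just outside it, with 2.

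**Figure D1:**
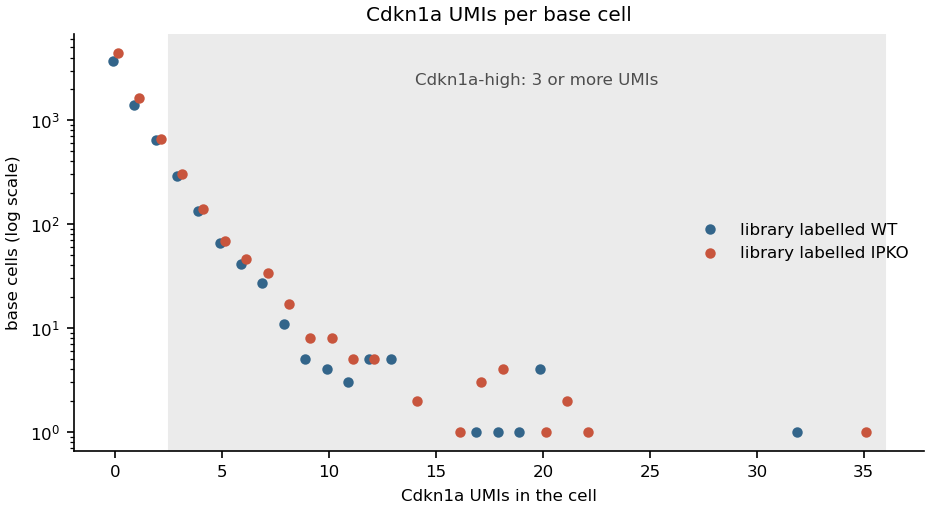
Number of base cells (log scale) by Cdkn1a UMIs in the cell, with 1 point per count and library; the grey area marks the Cdkn1a-high cells. Numbers go down steadily from 3743 and 4451 cells without a UMI, with no gap between members and the rest, and 25 and 33 cells hold 10 or more.

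A single Cdkn1a UMI was not particular to base cells. With every cell thinned to 5000 UMIs, 16.8% of base cells labelled WT and 17.1% labelled IPKO kept at least 1. Among immune barcodes of the same libraries (under 10% Sftpc, at least 5 UMIs of immune markers) the shares were 25% (8.66% to 49.1%, 20 barcodes) and 18.3% (11.4% to 27.1%, 104 barcodes), at median totals of 8789.5 and 7638 UMIs. No cell type is known that should lack Cdkn1a, so these barcodes cannot set a background level. The base shares lay within the intervals of the immune shares. Whether a single UMI stands above background could therefore not be tested. At least 2 UMIs remained in 2.88% and 3.85% of base cells, and the variance of the thinned counts was 1.39 and 1.60 times their mean.

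By AT2 markers other than Sftpc, Cdkn1a-high cells were close to the cells without Cdkn1a, though most AT2 genes stood slightly lower. Of the 29 listed AT2 genes, Sftpc among them, 7 in each library were higher in members than in matched cells. Sftpb stood at 10426 against 10337 CPM labelled WT and 9423 against 9333 CPM labelled IPKO, and Lamp3 at 1600 against 1648 CPM and 1489 against 1530 CPM. The Sftpc share, held at 10% or more by the rule, had medians of 20.5% against 21.3% of UMIs and 20.6% against 20.9%. They were deeper, with medians of 20652 and 18738 UMIs against 17713 and 16653, which is why the comparison was weighted by deciles of total UMIs. Mitochondrial shares were alike, at 5.09% against 5.22% and 3.82% against 3.93%. Summed immune markers (19 in the files) stood lower in members, at 24.4 against 30.1 CPM labelled WT and 32.5 against 55.4 CPM labelled IPKO, and their leading gene in every group was Cd79b. Among members 7 and 4 of these markers were at 0, Ptprc labelled WT among them. The 12 endothelial markers summed to 12.7 against 12.3 CPM and 38.9 against 16.4 CPM. The 12 mesenchymal markers, led by Sparc, stood at 276 against 252 CPM and 329 against 272 CPM. The 14 airway markers, mostly Scgb1a1, stood at 1420 against 1248 CPM and 501 against 507 CPM. The part of these markers in the ratios below was not tested.

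Few genes were higher in Cdkn1a-high cells of both libraries, and they were mostly transitional state genes. Of 6651 genes with at least 10 CPM, 13 (0.195%) were at least 1.5-fold higher in both libraries and 0 (0%) at least 1.5-fold lower, while the median log2 ratio of all genes was 0.042 and 0.051 (labelled WT, then labelled IPKO, here and below). At a log2 ratio of 0.32 or more, 64 genes were higher (0.962%) and 4 lower (0.0601%), and at 2-fold 5 were higher (0.0752%). With 1 library per genotype these counts rest on no test across mice. The 13 were S100a6, Lgals3, Krt19, Areg, Anxa1, Sfn, Krt8, Thbs1, Tnfrsf12a, Ndnf, Atf3, Atf5 and Timp2.

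S100a6, a small calcium-binding protein gene, had the highest ratio. It stood at 138 CPM in members and 19.4 CPM in cells without Cdkn1a labelled WT (7.14-fold, log2 ratio 2.84, interval 2.72 to 2.96) and at 93.2 and 18.5 CPM labelled IPKO (5.04-fold, 2.33, 2.22 to 2.45). Lgals3, which encodes galectin-3, stood at 163 and 38.6 CPM (4.21-fold) and at 168 and 45.4 CPM (3.70-fold). Areg, the gene of the EGF receptor ligand amphiregulin, stood at 66.6 and 15.7 CPM (4.23-fold) and at 76.6 and 32.8 CPM (2.33-fold). Summed over cells, members were thus above the cells without Cdkn1a in both libraries for these 3 genes. S100a6 was seen in 12.4% and 14.3% of members, Lgals3 in 51.8% and 47.3% and Areg in 26.2% and 33.3%. A single cell held 35.4% of the members' Lgals3 UMIs labelled IPKO. Thbs1, which encodes thrombospondin 1, was 3.0-fold and 1.85-fold higher, and Tnfrsf12a, the receptor gene of the cytokine TWEAK, 3.38-fold and 1.60-fold. Close to the limit stood the transcription factor genes Atf3 (1.54-fold and 1.53-fold) and Atf5 (1.72-fold and 1.52-fold) and the metalloproteinase inhibitor gene Timp2 (1.51-fold and 1.67-fold).

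**Figure D2:**
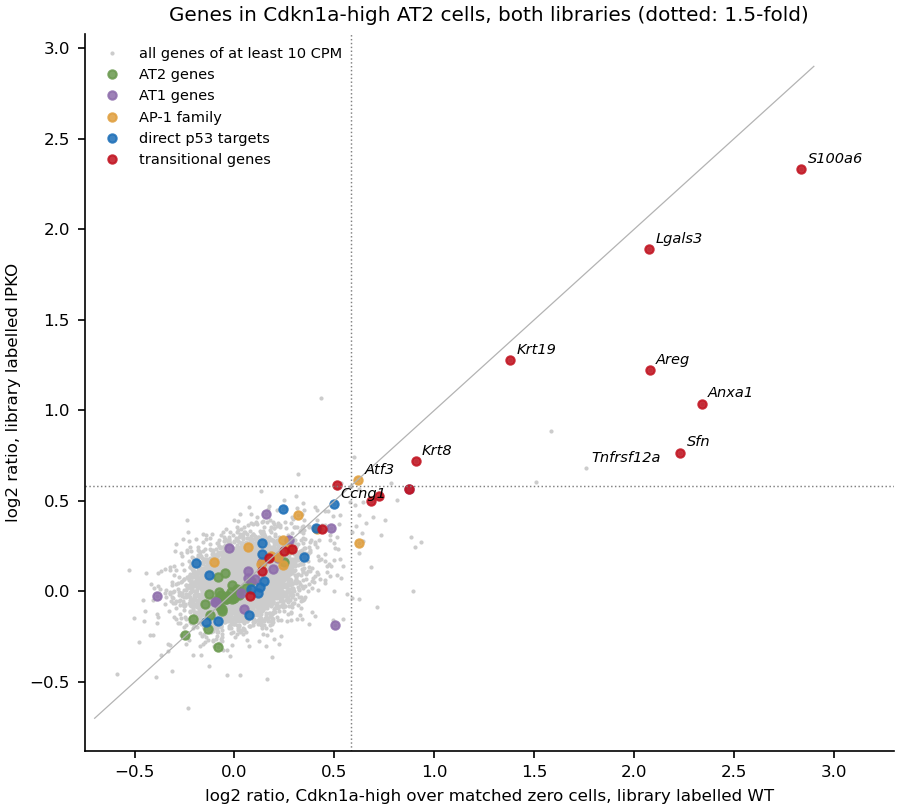
Log2 ratio of Cdkn1a-high cells over matched cells without Cdkn1a in the library labelled WT (x axis) and the library labelled IPKO (y axis), 1 point per gene of at least 10 CPM; colours mark gene lists and dotted lines 1.5-fold. Most genes cluster near 0 and the genes at the far upper right are transitional genes, led by S100a6 (2.84 and 2.33), while direct p53 targets and AP-1 genes lie at or just above the cloud.

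Direct p53 targets, taken as a list, were close to all genes. Of 38 listed genes 15 passed the level of 10 CPM, 0 of them were called at 1.5-fold and 2 (Ccng1 and Bax) had log2 ratios of at least 0.32 in both libraries. The list's median log2 ratio was 0.13 and 0.090, beside 0.042 and 0.051 for all genes. Trp53, the gene of p53 itself, stood at 12.1 against 9.80 CPM (0.30, interval 0.029 to 0.56) and 11.8 against 9.67 CPM (0.29, 0.020 to 0.55). The 10 measured p53 regulators had medians of 0.069 and 0.080.

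Within the list the ratios differed from gene to gene. Ccng1, the cyclin G1 gene, stood at 34.2 CPM in members and 24.2 CPM in cells without Cdkn1a labelled WT (0.50, interval 0.34 to 0.66) and at 30.3 and 21.7 CPM labelled IPKO (0.48, 0.32 to 0.65). Bax, which promotes apoptosis at mitochondria, stood at 43.9 and 33.1 CPM (0.41) and at 46.4 and 36.5 CPM (0.35). Mdm2, whose product degrades p53, stood at 23.9 and 21.5 CPM (0.15, -0.036 to 0.33) and at 23.3 and 22.4 CPM (0.058, -0.13 to 0.24), so that both intervals include 0. The repair gene Xpc had ratios of 0.24 and 0.46, and Rrm2b, a ribonucleotide reductase subunit gene, -0.14 and -0.17.

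Phlda3, a p53 target whose product restrains AKT, is under the level of 10 CPM and so outside those counts, and was picked out after its values had been seen. It had 106 UMIs in the 599 members labelled WT (8.03 against 1.21 CPM, log2 ratio 2.73, interval 2.24 to 3.23) and 151 in the 651 labelled IPKO (11.3 against 2.5 CPM, 2.17, 1.82 to 2.52). It was seen in 8.35% and 12.4% of members, beside 1.87% and 3.91% of cells without Cdkn1a. Also under that level were the nuclease gene Aen (0.71 and 0.41) and the RNA-binding protein gene Zmat3 (0.23 and 0.47). The 23 listed genes under 10 CPM also include genes with almost no UMIs in either group, such as Pmaip1 with 0 in members.

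Genes that p53 shares with other signals had higher medians than direct targets, 0.44 and 0.35 over 12 measured of 16 listed. The 2 called at 1.5-fold, Sfn and Atf3, also belong to the transitional and AP-1 lists; the 5 measured genes in no other list had medians of 0.42 and 0.27. Sfn, which encodes the epithelial cell cycle inhibitor 14-3-3 sigma, stood at 122 against 26 CPM and 84.0 against 49.3 CPM. Plk2 had ratios of 0.63 and 0.21, Ddit4 0.42 and 0.29, and Gadd45a -0.030 and 0.018. Gdf15, a stress cytokine gene under 10 CPM, had ratios of 2.07 and 1.32.

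By their median, AP-1 genes were slightly higher in members, to nearly the same extent in both libraries. Of 18 listed genes 12 were measured, with medians of 0.24 and 0.24. Labelled WT 2 of them reached 1.5-fold and labelled IPKO 1 did, and only Atf3 was called. Jun stood at 812 against 699 CPM labelled WT (0.22, interval 0.19 to 0.25) and at 1549 against 1356 CPM labelled IPKO (0.19, 0.17 to 0.21). Fos stood at 584 against 439 CPM (0.41) and 833 against 656 CPM (0.35). The difference between libraries in the level of Jun was thus larger than the difference between members and matched cells within either library.

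Atf3, a stress-induced repressor of the ATF family, was higher by more than Jun and Fos. It stood at 91.8 against 59.7 CPM (0.62, interval 0.52 to 0.72) and 203 against 132 CPM (0.62, 0.55 to 0.68), and was seen in 49.4% of members against 37.9% of cells without Cdkn1a labelled WT and in 71.0% against 55.8% labelled IPKO. Junb and Fosb had ratios of 0.24 and 0.28, and of 0.27 and 0.23. Fosl2 had 0.069 and 0.25, and Atf2 -0.11 and 0.16. Early response genes outside AP-1 had list medians of 0.24 and 0.21 over 21 measured genes with 0 called at 1.5-fold; Egr1 had 0.34 and 0.43, Dusp1 0.35 and 0.34, and Dusp6 -0.20 and 0.0031.

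Transitional state genes held 7 of the 13 called genes. Of 30 listed genes 17 were measured, and their median log2 ratio was 0.72 and 0.57; 12 of the 17 had log2 ratios of at least 0.32 in both libraries and 0 had -0.32 or less. Krt8, the keratin that names the state, stood at 193 against 103 CPM (0.91, interval 0.84 to 0.98) and at 199.8 against 121 CPM (0.72, 0.65 to 0.78). Its partner Krt18 had ratios of 0.68 and 0.50 and Krt19 of 1.38 and 1.28. Anxa1, an annexin gene, stood at 100.1 against 19.8 CPM (2.34, 2.22 to 2.46) and at 53.5 against 26.1 CPM (1.04, 0.90 to 1.17). Its intervals do not overlap between the libraries, but they leave out the spread between cells. The 10 highest members held 40.5% and 28.7% of its UMIs. The difference between the libraries was not tested. Lowest in the list were S100a11 (0.14 and 0.11) and Msn (0.079 and -0.025). Cldn4, another marker of the state, had 12 and 1 UMIs in members.

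AT1 genes lay close to all genes. Their median over 17 measured of 24 listed genes was 0.10 and 0.12, with 0 called at 1.5-fold. Krt7 (0.87 and 0.57), also on the transitional list, and Timp3 (0.48 and 0.35) had the highest mean ratios of the list, and the AT1 receptor gene Ager stood at 968 against 1034 CPM (-0.095) and 1044 against 1088 CPM (-0.060). The water channel gene Aqp5 had 0.19 and 0.13. Hopx had 0.51 (interval 0.28 to 0.72) labelled WT and -0.18 (-0.37 to -0.00027) labelled IPKO.

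AT2 genes were nearly level, with all 29 listed genes measured and medians of -0.047 and -0.027. Sftpc, which also set the limit for base cells, stood at 207767 against 213813 CPM and 206761 against 212475 CPM, a log2 ratio of -0.041 and -0.039. Elovl1, a fatty acid elongase gene, stood at 664 against 788 CPM (-0.25) and 650 against 767 CPM (-0.24), and Abca3, the lipid transporter gene of lamellar bodies, had -0.21 and -0.15. The protease gene Ctsh had 0.25 and 0.17. The lineage factor gene Nkx2-1 had -0.010 and -0.044. Lowest by the smaller of both libraries' ratios were Nnat (-0.39 and -0.47), Fam178b (-0.31 and -0.44) and Bmp4 (-0.32 and -0.30).

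**Figure D3:**
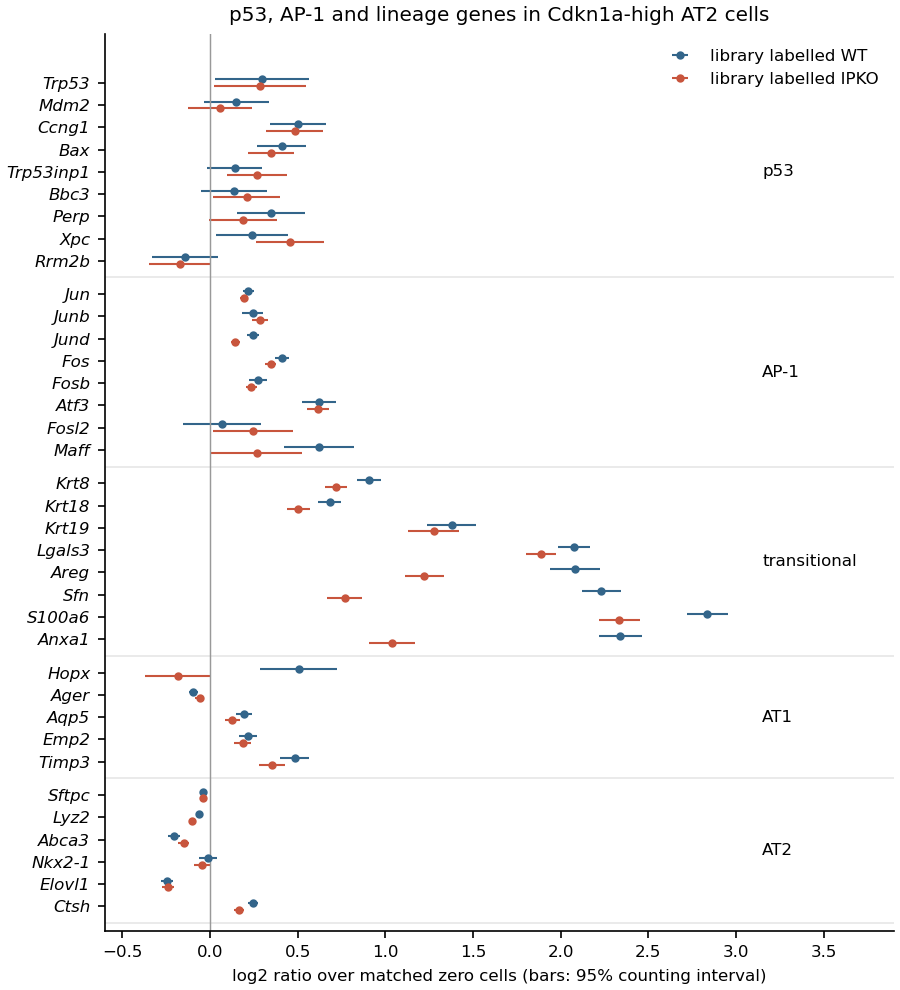
Log2 ratio of Cdkn1a-high cells over matched cells without Cdkn1a for p53, AP-1, transitional, AT1 and AT2 genes (y axis), with 1 point per library and bars for the 95% counting interval. Transitional genes reach 2.84 while Jun, Junb, Fos and the direct p53 targets drawn stay under 0.66 at the upper end of their intervals, and Sftpc and Nkx2-1 lie close to 0.

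A minority of Cdkn1a-high cells had very high transitional levels, and they carried most of the list's median ratio labelled WT but less of it labelled IPKO. Leaving out such cells from both groups took the transitional median from 0.72 to 0.18 labelled WT and from 0.57 to 0.41 labelled IPKO. Labelled IPKO, S100a6 then went from 2.33 to 0.71 and Lgals3 from 1.89 to 0.74, while Krt8 went from 0.72 to 0.43 and Areg from 1.22 to 0.88. The cells were left out by their UMIs of these same genes, so a fall is partly built in. Counted per cell after thinning to 5000 UMIs, the median number of transitional UMIs was 11 in members and 10 in cells without Cdkn1a labelled WT, and 13 and 11 labelled IPKO. Above the 99th percentile of the cells without Cdkn1a stood 55 of 599 members labelled WT (9.18%, interval 6.99% to 11.8%) and 33 of 651 labelled IPKO (5.07%, 3.51% to 7.05%). Seen from the other side, 55 of the 121 base cells over that limit labelled WT were Cdkn1a-high (45.5%, 36.4% to 54.8%), and 33 of 126 labelled IPKO (26.2%, 18.8% to 34.8%), while members made up 9.37% and 8.82% of all base cells. Over the 99th percentile of AP-1 UMIs stood 1.34% and 2.76% of members, and over that of direct p53 target UMIs 2.34% and 1.23%. S100a6 was carried by few cells: it was seen in 74 and 93 members, and the 10 highest members held 66.9% and 74.7% of its UMIs.

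**Figure D4:**
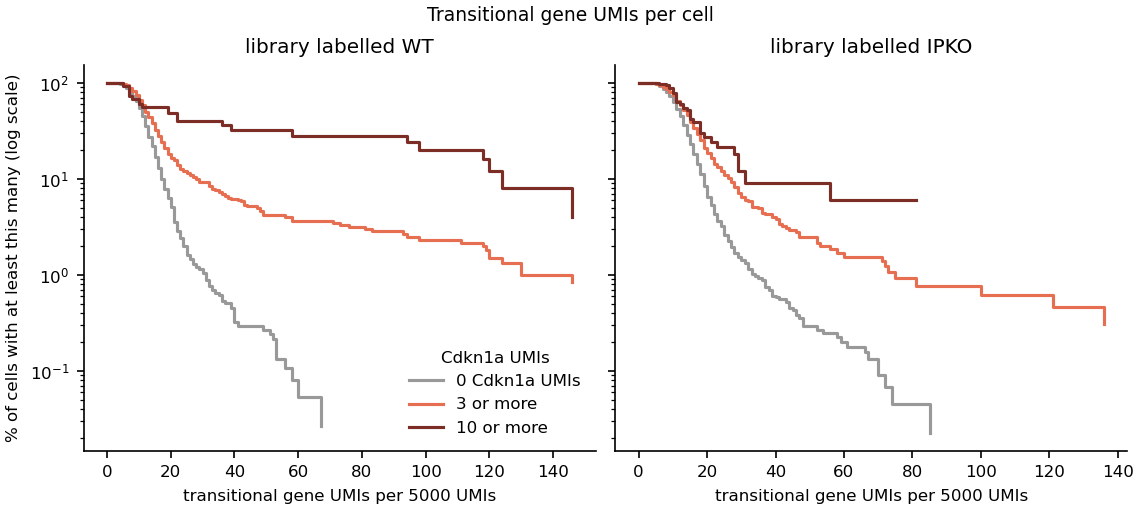
Share of cells (log scale) that hold at least a given number of transitional gene UMIs per 5000 UMIs (x axis, drawn to 150), for cells with 0, 3 or more and 10 or more Cdkn1a UMIs in each library. The curves start together and part at the upper end, where 9.18% and 5.07% of Cdkn1a-high cells pass the 99th percentile of cells without Cdkn1a.

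Members with a high transitional load had fewer AT2 and more AT1 transcripts. After thinning their median AT2 UMIs were 1360 labelled WT and 1424 labelled IPKO, against 1600.5 and 1570 in the other members, and their median AT1 UMIs were 24 and 29 against 15 and 17. The same was seen in cells without Cdkn1a that passed the limit (1444 and 1391 AT2 UMIs against 1625 and 1584, and 27 and 25 AT1 UMIs against 16 and 17). Krt7 is on both the AT1 and the transitional list, so sorting by transitional load raises the AT1 counts in part by itself. Direct p53 target UMIs had medians of 3 and 2 in these members and 3 and 3 in the other members. The transitional limit was passed by 55 members labelled WT and 33 labelled IPKO, and the p53 limit by 14 and 8. Above both limits were 3 members labelled WT and 0 labelled IPKO, and 5 and 1 of all base cells. Few cells passed either limit, so few could pass both by any account. Whether high transitional and high p53 target loads go together or apart was not tested.

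Members of high transitional load and cells of high transitional load without Cdkn1a were each set against all cells without Cdkn1a. The former had 20 Phlda3 UMIs in 7 of 55 cells (log2 ratio 3.85) and 18 in 11 of 33 (3.42). The latter had 1 UMI in 33 cells labelled WT and 3 UMIs in 3 of 45 cells labelled IPKO, too few for a direction. Aen had ratios of 1.83 and 1.17 in these members against 0.85 and -0.25 in high cells without Cdkn1a. Ccng1 had 1.00 and -0.15 against 0.030 and -0.17. The differences between these groups were not tested. With the high cells left out of both groups, 544 and 618 members remained, with ratios of 0.44 and 0.51 for Ccng1 and 0.55 and 0.62 for Atf3. Krt8 then stood at 0.34 and 0.43, and S100a6 at 0.78 and 0.71. Sorting by transitional load bears directly on transitional genes, and their values here are a description. For Phlda3 the same 544 and 618 members, set against all cells without Cdkn1a, had ratios of 2.56 and 2.06.

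By the number of Cdkn1a UMIs, transitional medians were higher in cells with more UMIs, unevenly labelled WT. Direct p53 target medians were highest at 10 or more, as were AT1 medians. Cells with 1 UMI had transitional medians of 0.12 and 0.10, those with 2 UMIs, just outside the rule, 0.23 and 0.16, and those with 3, just inside it, 0.52 and 0.41. At 4 UMIs they were 0.25 and 0.49, so that labelled WT the cells with 4 were near those with 2, and at 5 to 6 UMIs 0.98 and 0.69. AP-1 medians at 2 and 3 UMIs were 0.15 and 0.20 labelled WT, and 0.12 and 0.17 labelled IPKO. Direct p53 target medians stayed between -0.0082 and 0.21 from 1 to 9 UMIs in both libraries and stood at 0.70 and 0.44 at 10 or more, where all genes had 0.12 and 0.085. AT1 medians went from 0.094 and -0.0025 at 7 to 9 UMIs to 0.65 and 0.38 at 10 or more, and AP-1 medians from 0.25 and 0.31 to 0.64 and 0.36. AT2 medians stood at -0.32 and -0.13 at 10 or more. Phlda3 had ratios of 0.45 and 0.054 at 2 UMIs, 0.23 and 1.05 at 3, 1.68 and 0.94 at 4, 2.62 and 1.64 at 5 to 6, and 4.41 and 2.97 at 7 to 9. The bins were set after the data were seen.

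**Figure D5:**
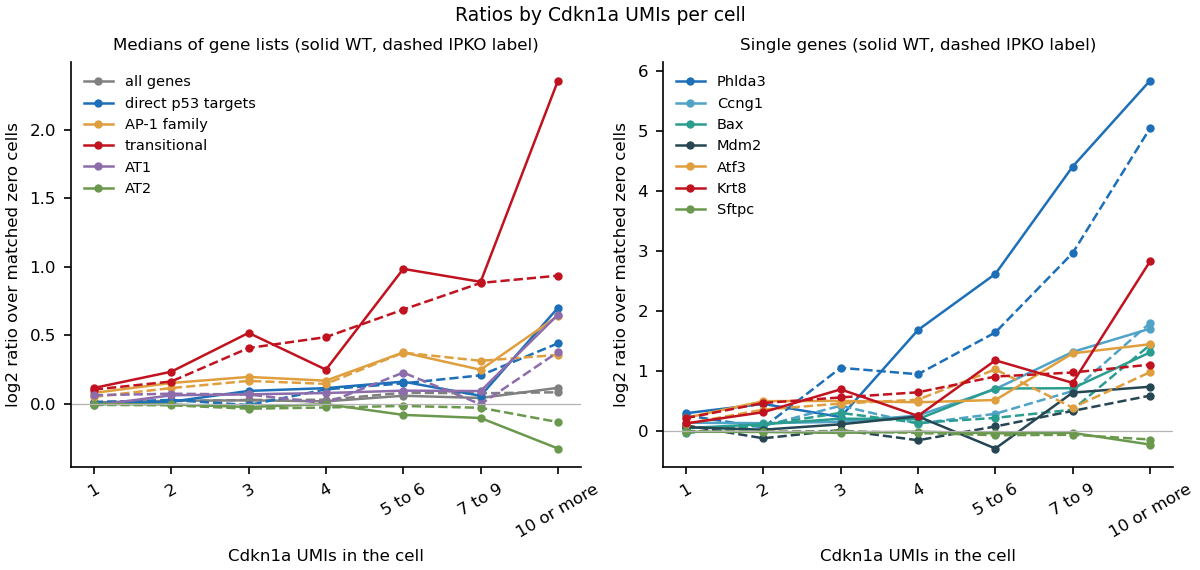
Log2 ratio over matched cells without Cdkn1a (y axis) by Cdkn1a UMIs in the cell (x axis), as medians of gene lists at left and single genes at right; solid lines are the library labelled WT and dashed lines the library labelled IPKO. Phlda3 reaches 5.85 and 5.05 at 10 or more UMIs and transitional medians reach 2.36 and 0.94, while AT2 medians end at -0.32 and -0.13.

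The 25 cells labelled WT and 33 labelled IPKO with 10 or more Cdkn1a UMIs had the highest direct p53 target medians of all bins, though other lists were as high. Of 6651 genes 185 (2.78%) were at least 1.5-fold higher in both libraries and 60 (0.902%) lower; with so few cells counting error alone is wide, and the median interval of single genes ran from -0.61 to 0.78 labelled WT. At 2-fold 33 genes were higher (0.496%) and 11 lower (0.165%). Among the 15 measured direct p53 targets 3 were at least 2-fold higher in both: Ccng1, Bax and Trp53inp1. Ccng1 stood at 77.6 against 23.8 CPM (1.70, interval 1.23 to 2.14) and 73.7 against 21.2 CPM (1.80, 1.38 to 2.19), and was seen in 18 of 25 and 22 of 33 cells. Bax was 2.47-fold and 2.70-fold higher, and Trp53inp1, which regulates p53 and autophagy, 2.56-fold and 2.60-fold. Mdm2 had 0.73 (0.014 to 1.37) and 0.58 (-0.052 to 1.16).

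Phlda3 stood at 75.9 against 1.32 CPM labelled WT, with 43 UMIs in 16 of 25 cells, and at 84.5 against 2.55 CPM labelled IPKO, with 63 UMIs in 21 of 33 cells. These are log2 ratios of 5.85 (5.21 to 6.48) and 5.05 (4.56 to 5.54), and no single cell held more than 7 and 9 of those UMIs. Zmat3 (1.94 and 1.79) and Aen (1.86 and 1.74) were alike in both libraries. Gdf15 stood at 98.8 against 3.9 CPM and 37.5 against 3.9 CPM. Trp53 itself had 13 and 5 UMIs, with ratios of 1.23 and -0.51. AP-1 genes had medians of 0.64 and 0.36, with Jun at 0.75 and 0.39 and Atf3 at 1.44 and 0.98. Heat shock genes had medians of 0.78 and 0.36 over 18 genes, and 4 of them (Hspa1b, Dnajb4, Hspb1 and Hspb8) were at least 1.5-fold higher in both libraries.

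Transitional genes in these cells differed more between the libraries. Their median was 2.36 labelled WT and 0.94 labelled IPKO, a difference that was not tested. Krt8 stood at 725 against 102 CPM (2.83) and 256 against 119 CPM (1.10), and Sfn at 519 against 26 CPM (4.32) and 106 against 48.7 CPM (1.12). Of the 25 cells labelled WT 10 were over the transitional limit (40.0%, interval 21.1% to 61.3%), and of the 33 labelled IPKO 3 were (9.09%, 1.92% to 24.3%). One cell labelled IPKO, with 11 Cdkn1a UMIs, held 797 of the 901 Lgals3 UMIs, 187 of the 214 S100a6 UMIs and 323 of the 343 Sprr1a UMIs of its bin. Leaving out the highest cell of each gene moved Lgals3 labelled IPKO from 4.72 to 1.61 and S100a6 from 4.09 to 1.10. Over all members labelled IPKO the same step moved Lgals3 from 1.89 to 1.26.

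High p53 target levels were also seen in the cells of low transitional load. In the 15 cells labelled WT and 30 labelled IPKO that were under the transitional limit, direct p53 targets had medians of 0.72 and 0.45, Phlda3 had ratios of 5.73 and 5.07, Ccng1 of 1.72 and 1.81 and Bax of 1.39 and 1.51. Their transitional medians were 0.18 and 0.27, their AT1 medians -0.11 and 0.036, and their AT2 medians -0.11 and -0.081. In the 10 cells labelled WT over the limit, Phlda3 had 16 UMIs in 4 cells (6.07), the direct p53 target median was 0.21, the AT1 median 1.42 and the AT2 median -0.81. The 3 such cells labelled IPKO are too few to describe. Of 19 immune markers 16 were at 0 in the bin of each library. Mesenchymal markers summed to 425 CPM labelled WT and 326 CPM labelled IPKO, against 252 and 272 CPM in cells without Cdkn1a, and airway markers to 786 and 557 CPM, against 1248 and 507 CPM. The part of these in the ratios was not tested. Another cell labelled IPKO held 226 endothelial UMIs and 14 Cdkn1a UMIs, so the endothelial markers summed to 312 CPM there against 16.4 CPM in cells without Cdkn1a. Without cells of 10 or more immune or endothelial UMIs the medians labelled IPKO were 0.48 for direct p53 targets and 0.96 for transitional genes, and Phlda3 stood at 5.07.

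The genes lowest in the 10 or more bin included Lrg1 (-1.01 and -1.40), a secreted glycoprotein gene, Nnat (-1.27 and -1.55) and Lyz1 (-2.28 and -1.37), whose UMIs may be split uncertainly with the near-identical Lyz2 (-0.14 and -0.17). All 4 were picked out after their values had been seen.

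Other lists lay close to all genes in the members as a whole. Heat shock genes had medians of 0.17 and 0.14 over 18 measured genes, glucocorticoid response genes 0.18 and 0.18 over 14, and apoptosis regulators 0.15 and 0.11 over 13. TGF-beta genes had 0.14 and 0.14 over 17, with Thbs1 the 1 called, and Id3 at 0.58 and 0.58. NF-kB genes had 0.11 and 0.15 over 11, led by Nfkbia (0.53 and 0.60), the gene of the pathway's own inhibitor. Integrated stress response genes had 0.11 and 0.11 over 18, with Nupr1 at 0.44 and 0.35 and Ddit3 at 0.68 and 0.13. NRF2 targets had 0.099 and 0.095, hypoxia genes 0.10 and 0.092, interferon genes 0.091 and 0.067, and MHC class II genes -0.078 and -0.022. Cell cycle genes were mostly too low, with 5 of 20 measured (0.098 and 0.23), as were other CDK inhibitors and cyclins with 5 of 12 (-0.032 and 0.0017), YAP targets with 7 of 16 (-0.035 and 0.067) and senescence genes with 6 of 22 (-0.11 and 0.062). Mitochondrially encoded genes had -0.031 and -0.072. Neighbours of Cdkn1a on chromosome 17 had medians of -0.042 and 0.0085 over 5 measured of 10, with Kctd20 at 0.29 and 0.0085.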

How the data were processed

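Both single-cell libraries, 1 per genotype label, were used. Deposited were UMI counts for each gene in each barcode, with no normalization, from Cell Ranger 4.0.0 and GRCm38 (mm10) per the submitters' processing notes. Which gene annotation release was used is not given. A 10x Genomics 3' kit was used, per the labels' protocols, so a count reports on the 3' end of a transcript. Empty droplets were not analysed here, and no level of free RNA could be set from them. No doublet caller was run, and leaving out the deepest 5% of cells was tried in its place.

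Counts were summed over cells, and the rate of each gene in cells without Cdkn1a, per decile of total UMIs, was weighted to the UMIs of the members; the log2 ratio is observed over expected. Single ratios have exact conditional binomial intervals, levels exact Poisson intervals and shares Clopper-Pearson intervals (95%). A count of 0 was set to a floor of 3 counts, and no ratio is given where both groups were at or under it. Base cells held 121709524 and 130736352 UMIs. A gene was called at 1.5-fold or more in the same direction in both libraries. Since the groups have 1 library each, no test was made. Named were Trp53, Mdm2, Ccng1, Jun, Fos, Atf3, Krt8 and Sftpc, the 15 highest and 10 lowest genes of at least 20 CPM by the smaller of both ratios, and up to 4 members per list; further genes are given as list members. The 28 gene lists matched 545 of 548 entries; the members and lists were chosen with earlier results of these data known. The bins of Cdkn1a UMIs and the split by transitional load came after the data were seen. The weighting was tested on simulated data. Alternatives changed the limits on cells, the matching, the gene filter, the comparison cells and the fold. Python 3.11.15, numpy 2.4.6, scipy 1.17.1 and pandas 2.3.3 were used. Gene positions come from GENCODE vM21, and start regions from RefSeq, leaving out those of chromosome 18.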

Additional observations from a re-analysis of the deposited data

Results flagged for a closer look

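Barcodes outside the base also held Cdkn1a. Among barcodes that passed the other limits but had under 10% Sftpc, 26 of 171 labelled WT had 3 or more Cdkn1a UMIs (15.2%, exact interval 10.2% to 21.5%). Labelled IPKO 34 of 337 did (10.1%, 7.09% to 13.8%). Base cells, with higher median totals, had 9.37% and 8.82%, and the latter lies within the interval labelled IPKO. Over all barcodes under 10% Sftpc the Cdkn1a level was 191 and 111 CPM. Transitional genes summed to 9827 and 12288 CPM in those with 3 or more, against 4697 and 5425 CPM in all of them. Endothelial markers summed to 2625 and 428 CPM in those with 3 or more, against 822 and 611 CPM in all of them. Immune markers summed to 829 and 3882 CPM in all of them. These barcodes thus include other cell types, whose part in the transitional sums was not tested.

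For 7 listed genes of at least 10 CPM the counting intervals of the ratio over cells without Cdkn1a lay on opposite sides of 0 in the libraries; the differences were not tested and the intervals do not cover the spread between cells. Hopx had 0.51 labelled WT and -0.18 labelled IPKO. Scgb1a1 had 0.049 and -0.21, Dcxr -0.13 and 0.090, Igfbp7 -0.19 and 0.070, and Cebpa -0.081 and 0.081. Scd1 (0.0098 and -0.021) and Sftpa1 (0.024 and -0.019) differed by little.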

How the results depend on the processing

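No paired analysis was possible because the labels give no replicate numbers that pair the libraries and each genotype has 1 library. Leaving out a library leaves the same comparison in the other. Values are labelled WT, then labelled IPKO.

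The shares of Cdkn1a-high cells were 19.4% and 17.6% at 2 or more UMIs, 4.82% and 4.72% at 4 or more, 2.88% and 3.85% at 2 or more after thinning to 5000 UMIs, and 8.53% and 8.04% without cells above the 95th percentile of UMIs. The 13 higher genes became 64 at a log2 ratio of 0.32 and 5 at 2-fold, 8 with all other base cells as comparison, 8 at 2 or more Cdkn1a UMIs, 21 at 4 or more, 23 with genes of at least 5 CPM, 286 with no gene filter and 22 with no limit on Sftpc. Lower genes numbered 4 at a log2 ratio of -0.32, 1 with members chosen after thinning and 126 with no gene filter; the last counts include genes of a few UMIs.

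Transitional medians were 0.54 and 0.398 at 2 or more UMIs. Labelled WT they were 0.95 at 4 or more, 0.54 at 15% Sftpc, 0.91 with no gene filter and 0.88 without the deepest cells. AT2 medians were -0.089 and -0.078 centred on all genes and -0.074 and -0.058 with no limit on Sftpc, and the AT1 median labelled WT was 0.029 with members chosen after thinning. In cells of 10 or more Cdkn1a UMIs transitional medians were 1.97 and 0.39 at 15% Sftpc and 2.64 and 1.32 without the deepest cells.

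Added after seeing the data: without cells of high transitional load 3 genes were called, and medians were 0.18 and 0.41 (transitional), 0.023 (AT1, labelled WT) and -0.019 (AT2, labelled WT), and 0.29 and 0.28 (transitional, 10 or more UMIs). With 3 to 9 Cdkn1a UMIs the transitional median labelled WT was 0.60. Leaving out cells with 10 or more immune or endothelial UMIs moved no gene count or median of the 5 main lists beyond its limits. Shares were not computed for it. A gene count could change up to 1.5-fold. A list median could move between the median lower and median upper ends of its genes' counting intervals.

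Leaving out cells with 2 or more UMIs of other types left 21 and 14 members, so that counting error dominates. It gave shares of 6.93% and 5.93%, 210 higher and 204 lower genes, and medians of -0.047 (reversed) and -0.042 (transitional), 0.35 (AP-1, labelled WT), -0.16 (direct p53 targets, labelled IPKO), -0.084 and 0.24 (AT1) and -0.0031 (AT2, labelled WT). Of the values at 1.5-fold or more in their library, those that changed sign there were Krt8 (-0.32), Krt19 (-0.33 and -0.398), Clu (-0.25), Mt2 (-2.24) and Tnfrsf12a (-0.042) labelled WT, and Lgals3 (-1.71), Hbegf (-1.18), Ndnf (-0.40) and Nfkbia (-0.66) labelled IPKO.

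Under the other alternatives run, the direct p53 target and AP-1 medians of all members stayed within their limits. For direct p53 targets these limits were wide, from -0.055 to 0.31 labelled WT and from -0.10 to 0.24 labelled IPKO. A change of sign could thus pass as unmoved there. For AP-1 genes they ran from 0.18 to 0.31 and from 0.14 to 0.35. Counting ratios and medians of any size, 376 of 6769 alternative values changed sign, 117 of them when cells with UMIs of other types were left out. Genes under 10 CPM, 23 of the 38 direct p53 targets among them, are limited by depth.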
